A study of Mus musculus with 10 samples.

Results

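The 10 genes described here, *Gad1*, *Gad2*, *Pvalb*, *Sst*, *Vip*, *Npy*, *Cck*, *Reln*, *Lamp5* and *Calb2*, mark GABAergic interneurons of the cortex and their classes. They were chosen by name and by no rule on their values, though with earlier results of these data known, from a table of 22000 genes. All 10 had enough counts to be tested. RNA-seq was performed on the prefrontal cortex (PFC) of 5 *Zbtb16* KO and 5 wild-type (WT) mice, with 1 library of poly(A) mRNA from each mouse. KO mice carried 2 copies of *lu*, a germline nonsense point mutation of the B6.C3-*Zbtb16*lu/J line that is present in every tissue. WT mice carried none. All mice were described as male and 7 weeks old, and no treatment is named. Whether the sequenced mice were littermates is not given in the sources used here. The question asked here was whether transcripts of each interneuron class were at the same level in the PFC of the genotypes.

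Interneurons are the inhibitory cells of the cortex. They make GABA from glutamate with the enzymes GAD67 and GAD65, the products of *Gad1* and *Gad2*, and they fall into classes that differ in their targets and in the calcium-binding proteins and peptides they hold. Parvalbumin cells inhibit the soma and axon of pyramidal neurons, somatostatin cells inhibit dendrites, VIP cells inhibit mainly other interneurons, and neurogliaform cells with Lamp5, NPY and reelin act broadly in the upper layers. Altered inhibition by these cells has long been studied in autism spectrum disorder and schizophrenia.

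Between 30220122 and 51231439 counts were assigned to genes per mouse, so a gene needed 3 counts, or 0.0586 to 0.0993 CPM (its counts scaled to a common library size), to be seen. *Zbtb16* itself was at 47.4 ± 4.96 CPM in the KO and 79.0 ± 7.23 CPM in the WT group (SD, n = 5 each), without overlap. RNA integrity (RIN) was 9.5 or above in 3 mice of each genotype and between 8.1 and 8.3 in the other 2. Although described as male, KO mouse 3 had 1 count in 4 Y-linked genes, against 4376 to 8182 counts in the other mice. Leaving out this mouse gave 0 calls among the 10 genes, with log2 fold changes of -0.20 for *Vip*, -0.19 for *Npy*, -0.14 for *Pvalb*, -0.08 for *Sst* and 0.40 for *Calb2*, close to those given below. The summed CPM of 12 striatal markers lay between 455.5 and 629 in KO mice and between 428 and 438 in 4 WT mice, but was 728 in WT mouse 5. Both *Adcy5* (187 ± 14.9 CPM in KO and 167 ± 22.8 CPM in WT mice; SD, n = 5) and *Ppp1r1b* (126 ± 23.3 and 112 ± 35.0 CPM; SD, n = 5) led this list. Between genotypes, edgeR called 0 of the 11 striatal markers tested (4 had an unadjusted p below 0.05) and 0 of 12 glutamatergic markers (3 had one). The striatal log2 fold changes, KO against WT, leaned upwards, with 8 positive and 3 negative and a median of 0.16. In a fit without the surrogate variables described below, 11 were positive and 0 negative, with a median of 0.20. Whether the dissections differed between genotypes was not tested. The sum of 5 olfactory bulb markers, led by *Cdhr1* and *Th*, was 13.3 CPM in WT mouse 5 and 4.02 to 6.54 CPM in the other mice. That of 12 glutamatergic markers, led by *Camk2a* and *Slc17a7*, lay between 6041 and 6976 CPM in KO mice and between 5691 and 6359 CPM in WT mice.

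None of the 10 interneuron genes passed the genotype test across the whole table. Each difference is given as a log2 fold change, KO against WT, from edgeR's quasi-likelihood test with 3 surrogate variables. These are values per mouse, computed from the counts and genotypes, that absorb differences between libraries. RIN was not entered in them, and whether they carry part of it was not tested. A gene was called at a Benjamini-Hochberg adjusted p below 0.05, and 0.844% of the 14344 genes tested were called, 0.6% as higher and 0.244% as lower in the KO group. In a fit without surrogate variables 0.209% of all genes and 0 of the 10 were called, and DESeq2 also called 0 of the 10. Before adjustment, 5 of the 10 genes had a p below 0.05, against 10.6% of all genes tested (5.51% higher and 5.1% lower in KO mice). Of these 5 genes, *Vip*, *Npy*, *Pvalb* and *Sst* were lower in KO mice and *Calb2* was higher. In all, 8 of the 10 log2 fold changes were negative, with a median of -0.06, against -0.004 over all genes. No gene of the 10 had CPM that did not overlap between the genotypes, while 1.58% of all genes had.

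**Figure D1:**
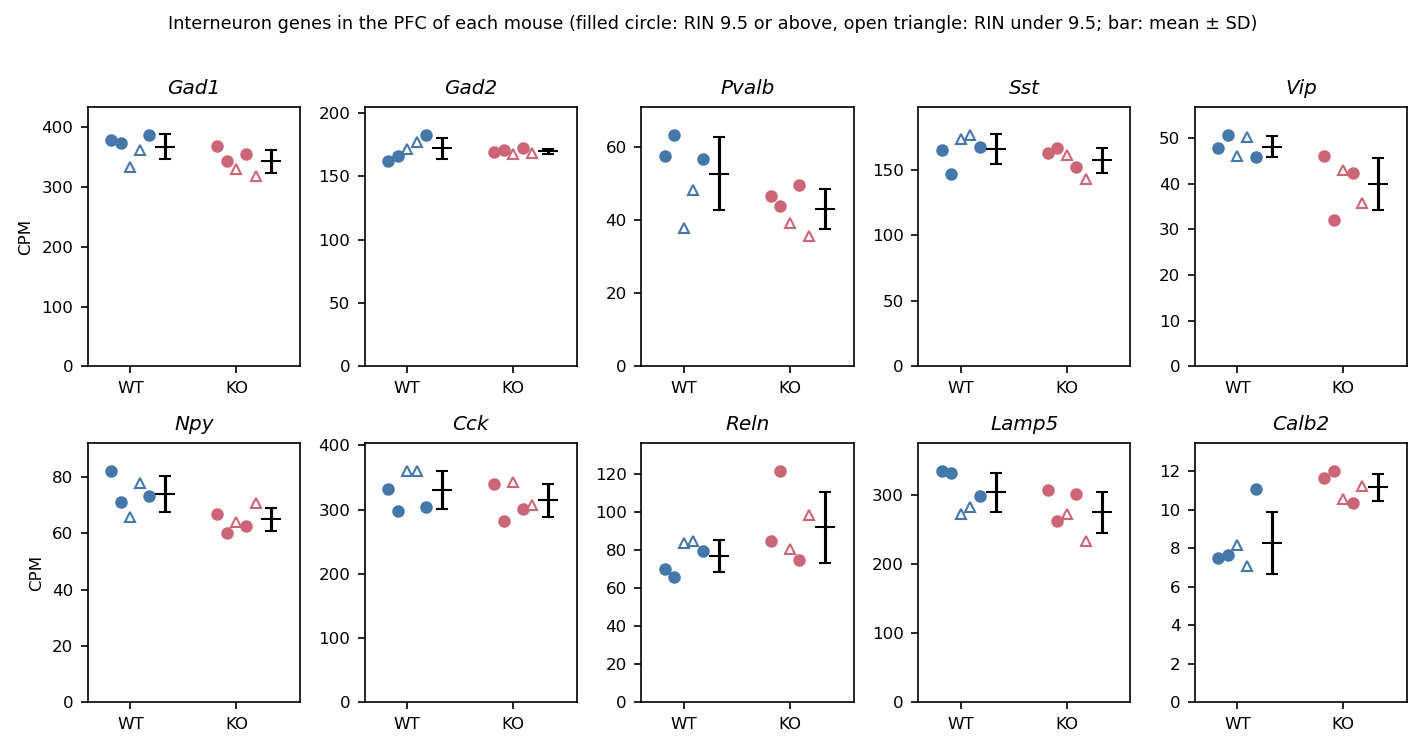
CPM of the 10 interneuron genes in each mouse, with WT mice in blue and KO mice in red, 1 panel per gene with its own linear axis from 0 and bars for the mean ± SD (n = 5). Filled circles are mice with a RIN of 9.5 or above and open triangles the others, and only for *Calb2* are all 5 KO mice above 4 of the 5 WT mice.

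GABA synthesis genes were close to equal in the genotypes. *Gad1* (ENSMUSG00000070880.10, chr2:70553072-70602014, plus strand of GRCm38) was at 368, 343, 331, 355 and 319 CPM in KO mice 1 to 5 and at 379, 374, 334, 362 and 388 CPM in WT mice 1 to 5. Its groups overlapped, with 2 KO mice below the lowest WT mouse. The log2 fold change was -0.05 ± 0.04 (SE; 95% confidence interval -0.13 to 0.02; adjusted p = 0.678). *Gad2* (ENSMUSG00000026787.3, chr2:22622205-22693874, plus strand) was at 169, 171, 167, 172 and 168 CPM in KO mice and at 162, 166, 172, 177 and 183 CPM in WT mice. All KO mice lay inside the WT range, and *Gad2* varied the least of the 10 genes among KO mice, with a coefficient of variation of 1.24%. Its log2 fold change was -0.03 ± 0.04 (SE; 95% confidence interval -0.11 to 0.05; adjusted p = 0.840), an interval that holds no change of *Gad2* larger than 0.11 in either direction. Without surrogate variables the log2 fold change of *Gad1* was -0.10, and that of *Gad2* turned to 0.007 in the mice with a RIN of 9.5 or above. In tissue RNA of this kind, fewer cells of a class and less RNA per cell cannot be told apart, and this holds for every gene below. The vesicular GABA transporter *Slc32a1*, which all GABAergic neurons need, was at 76.2 ± 2.71 CPM in the KO and 76.9 ± 7.08 CPM in the WT group (SD, n = 5 each), and the log2 fold change was 0.01 (adjusted p = 0.968). Of the 7 genes of GABA synthesis, transport and breakdown, 0 were called, 1 had an unadjusted p below 0.05, and the median log2 fold change was -0.01. Among them the GABA transaminase *Abat*, which breaks GABA down, was at 300.5 ± 34.9 CPM in KO and 292 ± 15.7 CPM in WT mice (SD, n = 5).

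*Pvalb*, the calcium buffer of fast-spiking basket and chandelier cells, was lower on average in KO mice, but its size depended on how the libraries were modelled. *Pvalb* (ENSMUSG00000005716.16, chr15:78191114-78206400, minus strand) was at 46.4, 43.7, 39.2, 49.6 and 35.7 CPM in KO mice and at 57.5, 63.2, 37.7, 48.2 and 56.5 CPM in WT mice. All 5 KO mice were below the WT mean, and the WT mice with the lower RIN, 3 and 4, lay within the KO range. KO differed from WT mice by -0.14 ± 0.06 on the log2 scale (SE; 95% confidence interval -0.28 to -0.006). The unadjusted p was 0.0420 and the adjusted p 0.447. Within the mice with a RIN of 9.5 or above, *Pvalb* lay between 43.7 and 49.6 CPM in the 3 KO mice and between 56.5 and 63.2 CPM in the 3 WT mice. Within the other mice it lay between 35.7 and 39.2 CPM in 2 KO and between 37.7 and 48.2 CPM in 2 WT mice. With RIN in place of surrogate variables the log2 fold change was -0.28 (adjusted p = 0.141), and in the mice with the higher RIN alone it was -0.34 (adjusted p = 0.146). Without surrogate variables it was -0.30 (adjusted p = 0.580), and with them but without WT mouse 5 it was -0.01 (adjusted p = 0.992). In the mice with the higher RIN, *Gad1*, *Pvalb* and *Npy* were the 3 genes of the 10 whose CPM did not overlap, all lower in KO mice, against 6.26% of all genes in that direction. The parvalbumin class of 9 genes, *Pvalb* included, gave 0 calls, with 6 negative log2 fold changes and a median of -0.08. An unadjusted p below 0.05 was found for *Pvalb* and for the tachykinin precursor *Tac1*, which had a difference of the opposite sign (log2 fold change 0.36, adjusted p = 0.0915). Which cells the *Tac1* reads came from was not tested. The most abundant genes of the class were the potassium channels of fast-spiking cells *Kcnc1* (234 ± 13.1 CPM in KO and 260.2 ± 23.0 CPM in WT mice; SD, n = 5) and *Kcnc2* (129 ± 6.01 and 136 ± 2.90 CPM; SD, n = 5), and the synaptic vesicle protein *Syt2* (75.4 ± 15.1 and 91.8 ± 18.1 CPM; SD, n = 5). Their adjusted p-values were 0.484, 0.673 and 0.651.

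*Sst*, the peptide of dendrite-targeting Martinotti cells, differed little. *Sst* (ENSMUSG00000004366.4, chr16:23889573-23890958, minus strand) was at 163, 167, 161, 152 and 143 CPM in KO mice and at 165, 147, 174, 177 and 167 CPM in WT mice. Only KO mouse 5 was below the lowest WT mouse, and the groups overlapped otherwise. KO differed from WT mice by -0.09 ± 0.04 on the log2 scale (SE; 95% confidence interval -0.18 to -0.001). The unadjusted p was 0.0473 and the adjusted p 0.464. The log2 fold change was 0.01 in the mice with a RIN of 9.5 or above. Among the 10 genes of the somatostatin class 0 were called and 2 had an unadjusted p below 0.05, and 5 log2 fold changes were positive and 5 negative, with a median of -0.01. Without surrogate variables 0 had such a p, 6 were positive and the median was 0.08. The NMDA receptor subunit *Grin3a* (41.7 ± 8.36 CPM in KO and 40.4 ± 4.27 CPM in WT mice; SD, n = 5) and the nitric oxide synthase *Nos1* (43.2 ± 8.76 and 36.7 ± 5.47 CPM; SD, n = 5) had adjusted p-values of 0.443 and 0.834. The log2 fold change of *Grin3a* was -0.12 with surrogate variables and 0.05 without them. *Elfn1*, which sets facilitating input onto somatostatin cells, was at 29.6 ± 2.15 CPM in the KO and 30.2 ± 3.48 CPM in the WT group (SD, n = 5 each), with an adjusted p of 0.920.

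*Vip* and *Calb2*, which overlap in the disinhibitory class of bipolar cells, had differences of opposite sign, neither of them called. *Vip* (ENSMUSG00000019772.5, chr10:5639218-5647617, plus strand) was at 46.1, 32.2, 43.1, 42.2 and 35.9 CPM in KO mice and at 47.8, 50.7, 46.1, 50.2 and 45.8 CPM in WT mice. Thus 4 of the 5 KO mice were below the lowest WT mouse, and KO mouse 1 lay just inside the WT range. The KO mice also spread more, with a coefficient of variation of 14.3% against 4.75%. KO differed from WT mice by -0.18 ± 0.06 on the log2 scale (SE; 95% confidence interval -0.30 to -0.06). The unadjusted p was 0.00487 and the adjusted p 0.189. Without surrogate variables the log2 fold change of *Vip* was -0.27 (adjusted p = 0.379). The difference was negative with an unadjusted p below 0.05 in each of the 31 alternatives tried, from -0.33 to -0.14, and passed the adjusted threshold in none of them.

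*Calb2* encodes calretinin, a calcium buffer held by many VIP cells and by other cortical and striatal interneurons. *Calb2* (ENSMUSG00000003657.9, chr8:110137502-110168210, minus strand) was at 11.7, 12.0, 10.5, 10.4 and 11.2 CPM in KO mice and at 7.48, 7.67, 8.15, 7.09 and 11.1 CPM in WT mice. Among WT mice, 4 were below all KO mice and WT mouse 5 lay inside the KO range. WT mouse 5 was also the library with the highest sums of striatal and olfactory bulb markers, and the part of these markers in the *Calb2* values was not tested beyond the fits given here. KO differed from WT mice by 0.41 ± 0.11 on the log2 scale (SE; 95% confidence interval 0.17 to 0.65), or 1.33-fold. The unadjusted p was 0.00207 and the adjusted p 0.121. Without WT mouse 5 the log2 fold change was 0.55 (adjusted p = 0.0313) with surrogate variables and 0.56 (adjusted p = 0.0290) without them. With a striatal marker score as a covariate in place of surrogate variables it was 0.36 (adjusted p = 0.402). *Calb2* was the rarest of the 10 by read number, with 225 to 582 counts per mouse.

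**Figure D2:**
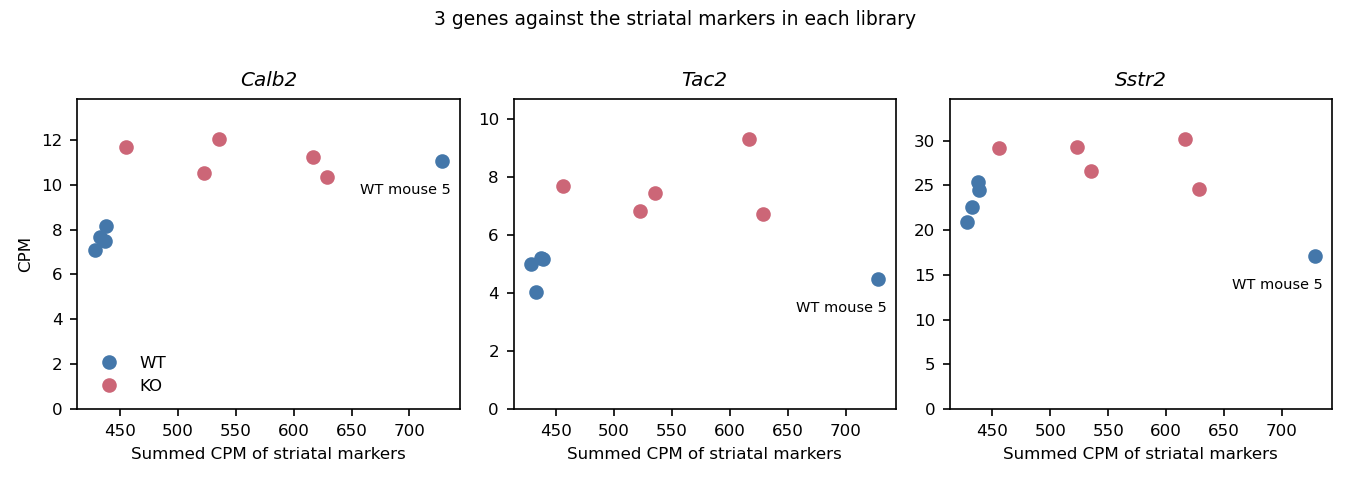
CPM of *Calb2*, *Tac2* and *Sstr2* (vertical axes, from 0) against the summed CPM of 12 striatal markers (horizontal axes), with WT mice in blue and KO mice in red. For *Calb2* the 1 WT mouse at KO level is WT mouse 5, at a striatal sum of 728 CPM, while for *Tac2* this mouse lies with the other WT mice.

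Of this class *Tac2* was called as higher in KO mice, a call that many alternatives did not keep. This gene, the precursor of neurokinin B and a marker of a subset of VIP cells, was at 7.68, 7.45, 6.81, 6.73 and 9.30 CPM in KO mice and at 5.22, 4.02, 5.19, 5.00 and 4.49 CPM in WT mice. All KO mice were above all WT mice, which held for 0.899% of all genes. The log2 fold change was 0.58 ± 0.11 (SE, adjusted p = 0.0194), and without surrogate variables it was 0.67 (adjusted p = 0.0378). It was 0.67 with the striatal marker score as a covariate (adjusted p = 0.0991) and 0.68 when mice with a RIN under 9.5 were left out (adjusted p = 0.236). Leaving out KO mouse 1, KO mouse 4 or WT mouse 3, 4 or 5 also ended the call, with an adjusted p of at most 0.141 over all mice left out in turn. Without surrogate variables the call was kept in 1 of the 10 fits with a mouse left out, with adjusted p from 0.0433 to 0.115. Of the 7 genes of the VIP class *Tac2* was the only one called, and 3 log2 fold changes were positive and 4 negative. *Crh*, the stress peptide that some VIP cells contain, was at 4.95 ± 0.840 CPM in the KO and 6.14 ± 0.497 CPM in the WT group (SD, n = 5 each), with an adjusted p of 0.529.

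*Npy*, *Lamp5* and *Reln*, shared by neurogliaform cells, had differences of unlike size and sign, none of them called. *Npy*, a peptide of neurogliaform and of many somatostatin cells (ENSMUSG00000029819.6, chr6:49822710-49829507, plus strand), was at 66.8, 60.2, 64.0, 62.5 and 70.7 CPM in KO mice and at 82.1, 70.9, 65.6, 77.7 and 73.1 CPM in WT mice. Of the KO mice 3 were below the lowest WT mouse, and 4 of the 5 WT mice were above the highest KO mouse. KO differed from WT mice by -0.19 ± 0.06 on the log2 scale (SE; 95% confidence interval -0.31 to -0.06). The unadjusted p was 0.00529 and the adjusted p 0.197. Leaving out WT mouse 3, the lowest WT value, brought it to -0.27 with an adjusted p of 0.0322, the only one of the 31 alternatives in which *Npy* was called. *Lamp5*, a membrane protein that defines a class of neurogliaform and related cells (ENSMUSG00000027270.14, chr2:136052239-136069917, plus strand), was at 307, 262, 272, 301 and 234 CPM in KO mice and at 335, 331, 272, 282 and 299 CPM in WT mice. Over all mice *Lamp5* averaged 290 CPM, against 355 CPM for *Gad1*, and which cells its reads came from was not tested. The 2 lowest *Lamp5* values were from KO mice and the 2 highest from WT mice, with overlap between them. Its log2 fold change was -0.03 ± 0.04 (SE, adjusted p = 0.821), -0.14 without surrogate variables (adjusted p = 0.676) and 0.006 with them but without WT mouse 5.

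*Reln*, the secreted guidance protein of layer 1 and of several interneuron classes (ENSMUSG00000042453.14, chr5:21884454-22344702, minus strand), was at 85.1, 122, 80.5, 75.1 and 98.5 CPM in KO mice and at 70.3, 65.7, 83.8, 85.0 and 79.4 CPM in WT mice. The KO mean rested on KO mice 2 and 5, and KO mouse 4 was below the WT mean. The log2 fold change was 0.10 ± 0.06 (SE; 95% confidence interval -0.02 to 0.22; adjusted p = 0.552), and 0.26 without surrogate variables (adjusted p = 0.596). Leaving out KO mouse 2 brought the fit with surrogate variables to 0.04 (adjusted p = 0.853). Exons of *Reln* share 246 bases with the antisense gene *Gm10475*, and whether the counting used strand is not given in the sources used here. Among the 9 genes of the Lamp5 and neurogliaform class 0 were called and 3 had an unadjusted p below 0.05, with a median log2 fold change of -0.03. The chemokine *Cxcl14* was at 74.9 ± 3.80 CPM in the KO and 86.1 ± 6.26 CPM in the WT group (SD, n = 5 each), a log2 fold change of -0.20 (adjusted p = 0.109).

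*Cck* is the peptide of a class of basket cells and is also transcribed in many cortical pyramidal neurons, so its level in tissue is not specific to interneurons. *Cck* (ENSMUSG00000032532.7, chr9:121489824-121495694, minus strand) lies 72.7 Mb from *Zbtb16* on chromosome 9. It was at 339, 282, 343, 300.5 and 307 CPM in KO mice and at 332, 298, 359.9, 360.4 and 305 CPM in WT mice. The groups overlapped over most of their range. The log2 fold change was -0.07 ± 0.04 (SE; 95% confidence interval -0.16 to 0.01; adjusted p = 0.556), and -0.15 without WT mouse 5 (adjusted p = 0.313). All 4 genes of the CCK basket class had negative log2 fold changes in the fit with surrogate variables, 0 were called, and 2 had an unadjusted p below 0.05. Without surrogate variables 3 were negative and 1 had such a p, and *Sncg*, the least abundant of the 4, moved from -0.14 ± 0.36 to 0.01 ± 0.30 (SE). The cannabinoid receptor *Cnr1*, dense on the terminals of these cells, was at 173 ± 7.29 CPM in the KO and 189 ± 24.6 CPM in the WT group (SD, n = 5 each), a log2 fold change of -0.17 (adjusted p = 0.217). The vesicular glutamate transporter *Slc17a8* was at 3.52 ± 0.628 CPM in the KO and 4.81 ± 0.459 CPM in the WT group (SD, n = 5 each), with an adjusted p of 0.266.

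**Figure D3:**
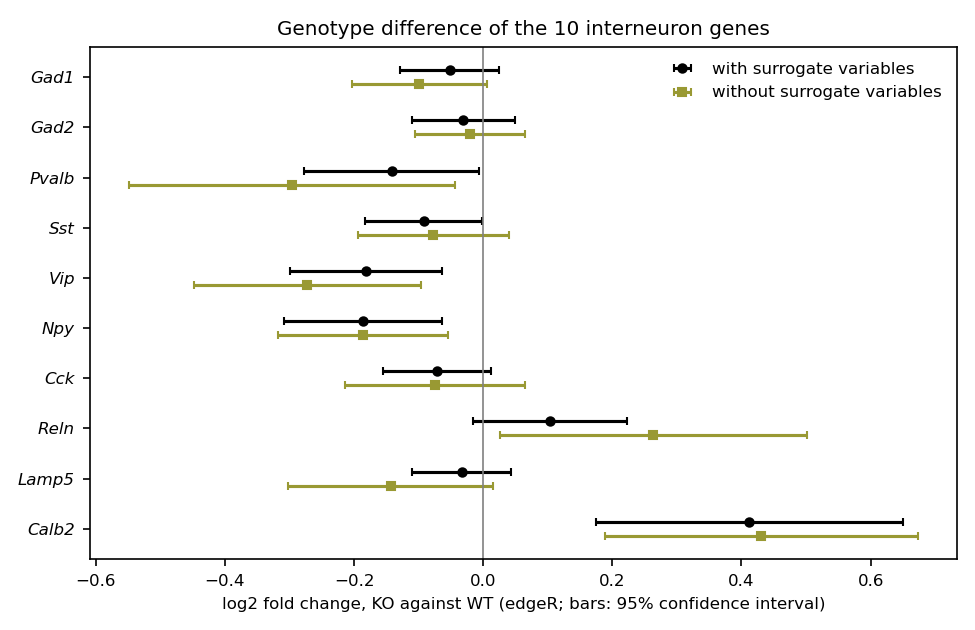
Log2 fold change of each of the 10 interneuron genes, KO against WT (horizontal axis), with 95% confidence intervals from edgeR with 3 surrogate variables (black circles) and without them (olive squares). *Pvalb*, *Reln*, *Lamp5*, *Vip* and *Gad1* lie farther from 0 without surrogate variables, while *Npy* (-0.19 in both) and *Calb2* (0.41 and 0.43) hardly move.

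The peptide genes *Sst*, *Vip* and *Cck* are known targets of cyclic AMP signalling, and the promoters of the 10 genes were searched for its response element. RefSeq promoter windows of GRCm38.p6, from 250 bases before to 50 bases after the transcript start, were at hand for 9 of the 10 genes. The full cyclic AMP response element TGACGTCA, a palindrome, was present in 1 of the 9, *Sst*. It was present in 2.03% of all 27025 genes with windows, and in 1.79% of all 32851 windows. Its half-site CGTCA, or TGACG on the other strand, was present in *Sst*, *Vip*, *Cck* and *Gad2*, and in 23.0% of all genes (20.8% of all windows). Matches to the full element are also matches to the half-site. A stretch of 30 bases around the match is shown for the 3 peptide genes, with the full element or the half-site in capitals, each read along the strand of its gene.
*Sst*, chr16:23890874-23890903, minus strand: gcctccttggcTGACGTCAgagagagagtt
*Vip*, chr10:5639127-5639156, plus strand: ggatcactactgTGACGtctttcggggagc
*Cck*, chr9:121495724-121495753, minus strand: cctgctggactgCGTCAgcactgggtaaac
The matches began 48, 79 and 47 bases before the RefSeq start of *Sst*, *Vip* and *Cck*. For *Sst* this start differs from that of Gencode, and the stretch shown lies inside the Gencode position of the gene. The matches describe letters in these windows, and no measurement of binding was made. The 3 genes had log2 fold changes of -0.09, -0.18 and -0.07, none of them called.

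Levels were compared between genes per kilobase of exon, the length being all annotated exons of a gene merged over its transcripts. The transcripts in use can be shorter, and their lengths were not measured. The order was *Cck* (247 CPM per kilobase, mean of 10 mice), *Sst* (224), *Npy* (123), *Lamp5* (98.7), *Gad1* (46.5), *Pvalb* (45.9), *Gad2* (29.1), *Vip* (12.9), *Calb2* (5.58) and *Reln* (3.56). Neighbours in this order held their places in all 10 mice, except that *Cck* was above *Sst* in 9 and *Gad1* above *Pvalb* in 6 of them. On this measure *Gad1* and *Pvalb* thus did not differ beyond their spread. The low place of *Reln* goes with the merged length of its exons, 23738 bases over 15 transcripts.

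**Figure D4:**
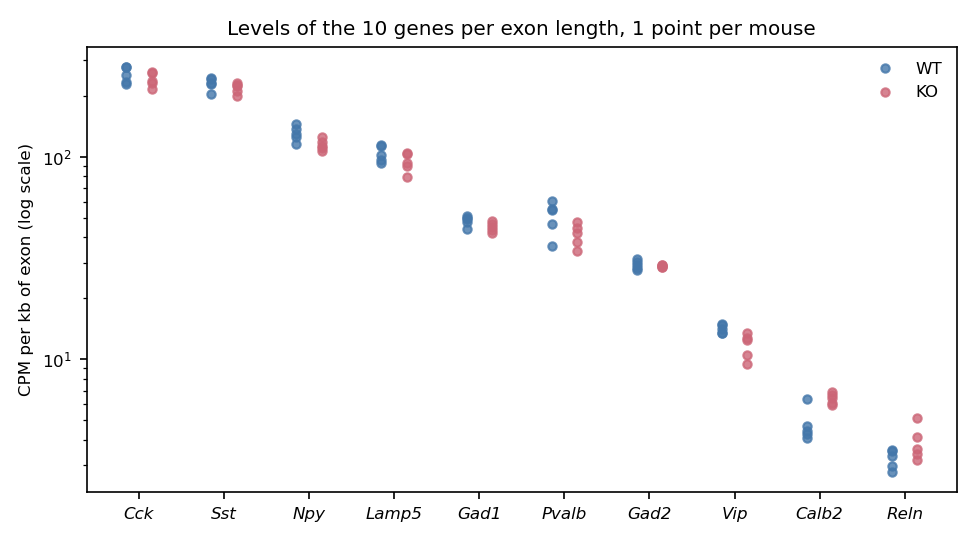
CPM per kilobase of exon of the 10 interneuron genes in each mouse (vertical log axis), in order of their mean, with WT mice in blue and KO mice in red. The genes run from 247 for *Cck* to 3.56 for *Reln*, and the genotypes overlap for each gene.

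Ratios between classes were compared within each mouse, which needs no scaling of the libraries. The log2 ratio of *Pvalb* to *Sst* was -1.88 ± 0.17 (SD) in KO and -1.68 ± 0.38 (SD) in WT mice. The difference of -0.20 did not pass an exact two-sided permutation test over 5 mice per genotype (p = 0.302, adjusted over the 3 ratios 0.452). For *Sst* to *Vip* the log2 ratio was 1.99 ± 0.23 (SD) in KO and 1.78 ± 0.15 (SD) in WT mice, and all 5 KO mice were above the WT mean (difference 0.21; exact permutation p = 0.111, adjusted 0.333). *Pvalb* to *Vip* differed by 0.001 (exact permutation p = 1, adjusted 1), against SDs of 0.23 in KO and 0.27 in WT mice. Leaving out 1 mouse in turn moved the *Pvalb* to *Sst* difference between -0.34 (without WT mouse 3) and -0.09 (without WT mouse 2), and brought that of *Sst* to *Vip* to 0.11 without KO mouse 2. None of these 3 ratios was shown to differ between genotypes, and no ratio was tested for the other genes.

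Relative to the sum of *Gad1* and *Gad2*, which all these cells share, *Calb2* stood at 1.97 to 2.34% in KO mice and at 1.31 to 1.94% in WT mice. All 5 KO mice were above the highest WT mouse on this ratio, by a narrow margin from WT mouse 5, as were 1.9% of all genes. WT mouse 5 had the highest *Gad1* and *Gad2* of all mice (388 and 183 CPM), which lowers its ratio. Its *Calb2* CPM alone lay inside the KO range. This mouse also had the highest striatal sum (728 CPM), and the part of striatal tissue in its *Gad1* and *Gad2* was not tested. *Vip* was at 7.77% of that sum on average in KO and 8.93% in WT mice, *Pvalb* at 8.35 and 9.72%, and *Reln* at 18.0 and 14.3%. *Sst* (30.7 and 30.8%) and *Cck* (61.4 and 61.6%) were almost equal. Ranges overlapped for every gene but *Calb2*, and no test was made on these ratios.

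The genes varied together across mice to different degrees, given as a description over 10 mice, in which both values of a pair come from 1 library and its RNA quality. On log2 CPM, and chosen as the extremes of all pairs of the 10 genes, *Gad1* went with *Pvalb* (r = 0.93) and with *Lamp5* (r = 0.87), and *Pvalb* with *Lamp5* (r = 0.88). The most negative pairs were *Vip* with *Reln* (r = -0.85) and *Reln* with *Lamp5* (r = -0.77). *Gad1* and *Gad2*, despite their shared product, had r = 0.21 (rho = 0.08). For 6 pairs of measures taken as a family, no r had an adjusted p below 0.05 in a permutation test. The nearest was *Vip* with *Calb2*, with r = -0.72 (permutation p = 0.0131, adjusted 0.0788) and rho = -0.79 (permutation p = 0.00932, adjusted 0.0559). It was -0.74 without KO mice 2 and 5, the farthest from the median of *Vip* (permutation p = 0.0491), and -0.65 in the 6 mice with a RIN of 9.5 or above. With each genotype centred on its own mean it was -0.37 (permutation p = 0.284), so the pooled value includes the difference between genotypes. The remaining r were 0.14 for *Sst* with *Npy* (rho = 0.21, adjusted permutation p = 0.920 and 1), -0.03 for *Pvalb* with *Sst* (rho = 0.006, adjusted 0.926 and 1), 0.46 for *Gad2* with the striatal score (rho = 0.19, adjusted 0.545 and 1) and -0.11 for *Gad1* with that score (rho = -0.04, adjusted 0.920 and 1). For *Gad2* with the striatal score r was -0.17 without WT mice 1 and 5, 0.91 in the 6 mice with the higher RIN and 0.58 with each genotype centred (permutation p = 0.0830), so the pooled value depended on the mice included.

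Among 14321 other genes, those most like *Gad1* across the 10 mice by Pearson's r on log2 CPM were *Syt2* (0.95), *Vamp1* (0.94) and *Plxdc1* (0.94). *Pvalb* was most like *Ankrd35* (0.97), *Vamp1* (0.96) and *Abcd2* (0.96), so *Gad1* and *Pvalb* shared *Vamp1*. For *Sst* these genes were *Cdkn1c* (0.91), *Rab39* (0.89) and *Aatk* (0.89), and for *Vip* they were *Spata5* (0.94), *Usp33* (0.93) and *Kcnt2* (0.93). None of these genes was called between genotypes.

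The wider programme of these classes was read from 8 lists with 76 genes, of which 74 were tested. Of the 74 genes, 2 were called, both higher in KO mice, against 0.6% of all genes in that direction, and 19 had an unadjusted p below 0.05. *Tac2* was the first. The other was *Sstr2*, a receptor for somatostatin that inhibits the cells bearing it. *Sstr2* was at 29.2, 26.6, 29.3, 24.6 and 30.1 CPM in KO mice and at 25.4, 22.5, 24.4, 20.9 and 17.1 CPM in WT mice. Only KO mouse 4 fell below the highest WT mouse. Its log2 fold change was 0.34 ± 0.08 (SE, adjusted p = 0.0465). The size stayed at 0.34 without surrogate variables, but the adjusted p was then 0.279. Without WT mouse 5, which had the lowest value, it was 0.23 (adjusted p = 0.413). The call was also lost without KO mouse 1, 3 or 4 or WT mouse 3 or 4, so that it held with 4 of the 10 mice left out in turn.

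Among the 14 receptors and reelin pathway genes, 13 were tested and *Sstr2* was the only one called. The gastrin and cholecystokinin receptor *Cckbr* was at 68.7 ± 8.52 CPM in the KO and 76.4 ± 14.5 CPM in the WT group (SD, n = 5 each), and the log2 fold change was -0.20 (adjusted p = 0.0739). The reelin receptors *Lrp8* (96.1 ± 7.54 CPM in KO and 109 ± 9.51 CPM in WT mice; SD, n = 5) and *Vldlr* (92.5 ± 5.51 and 92.9 ± 1.89 CPM; SD, n = 5) had log2 fold changes of -0.17 and -0.03. *Dab1*, the adaptor that relays reelin, had one of 0.17. Their adjusted p-values were 0.117, 0.835 and 0.227. DESeq2 in place of edgeR called 233 of all 14344 genes tested, against 121 with edgeR. Of the 74 genes it called 5. These were *Tac2* and *Sstr2*, *Tac1* (0.36 on the log2 scale, adjusted p = 0.0373), *Cckbr* (-0.19, adjusted p = 0.0212) and *Cxcl14* (-0.20, adjusted p = 0.0407), of which *Tac1* was named after its value was seen. *Tac1* was highest among WT mice in WT mouse 5, at 16.7 CPM against 10.5 to 12.5 CPM in the other WT mice and 14.7 to 19.0 CPM in KO mice. WT mouse 5 was also the mouse with the highest sum of striatal markers, and the part of striatal tissue in the *Tac1* values was not tested.

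A list of 17 genes of interneuron specification, all transcription factors except *Adarb2*, gave 0 calls among 16 tested and 1 unadjusted p below 0.05. Its log2 fold changes were 10 positive and 6 negative, with a median of 0.03. *Satb1*, needed for the maturation of somatostatin cells, was at 171 ± 16.1 CPM in the KO and 189 ± 5.32 CPM in the WT group (SD, n = 5 each), and the log2 fold change was -0.09 (adjusted p = 0.408). *Maf* (31.7 ± 2.49 CPM in KO and 31.7 ± 2.44 CPM in WT mice; SD, n = 5) and *Nr2f1* (68.2 ± 6.09 and 63.8 ± 2.49 CPM; SD, n = 5) had adjusted p-values of 0.759 and 0.883. The GABAergic factors *Dlx1*, *Dlx2*, *Dlx5* and *Dlx6*, which mark GABAergic neurons as a whole, had adjusted p-values between 0.631 and 0.980.

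**Figure D5:**
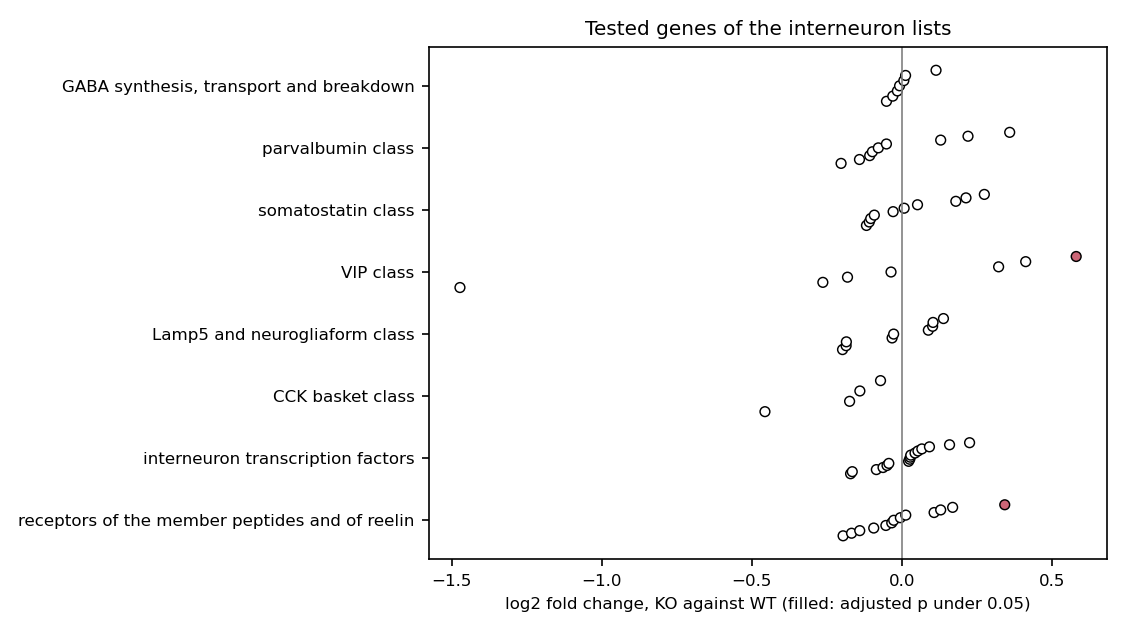
Log2 fold change, KO against WT (horizontal axis), of every tested gene of the 8 interneuron lists, 1 circle per gene and 1 line of circles per list, from edgeR with 3 surrogate variables. The 2 filled circles are *Tac2* in the VIP class (0.58) and *Sstr2* among the receptors (0.34), and the circle at -1.47 is *Chat*, which was at most at 1.22 CPM in any mouse and was not called.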

How the data were processed

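Total RNA of the PFC of 5 KO and 5 WT mice was sequenced as stranded mRNA libraries. The authors aligned reads to mm10 with STAR 2.7.1a and used HTSeq 0.9.1 to count uniquely mapped reads on protein-coding exons in Gencode M21 (versions per the labels). The deposited values are these raw counts. None of the 20 pairs of libraries of 1 genotype agreed within sampling noise.

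Counts were tested with edgeR 4.0.16 (quasi-likelihood, TMM scaling, its filter on low counts) in R 4.3.3, with 3 surrogate variables from sva 3.50.0 on log2(CPM + 1) and Benjamini-Hochberg adjustment over 14344 genes at 0.05. CPM are after TMM scaling. Limma 3.58.1 and DESeq2 1.42.0 were alternatives. Ratios and relations were tested by permutation in scipy 1.17.1. Scripts were tested on simulated data. Positions are from Gencode M21, and promoters from RefSeq. Floors cover counting error only, since reads carry no molecular identifiers, and p-values the spread between these mice.

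The 10 genes, the lists and the tests were chosen with earlier results of these data known. Named from the lists are genes that passed, and otherwise up to 4 per list with the highest mean CPM (2 for other tissues), the DESeq2 calls, the general GABAergic markers, and the 3 genes most like each of *Gad1*, *Pvalb*, *Sst* and *Vip*. Of the 13 striatal genes listed, 12 had a matching symbol. Alternatives varied surrogate variables, covariates, scaling, filter, tool and mice, and are given in the closing section. Some genes that this rule would name are not reported here.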

Additional observations from a re-analysis of the deposited data

Results flagged for a closer look

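*Calb2* in WT mouse 5 stood apart from the other WT mice at 11.06 CPM, against 7.09 to 8.15 CPM in the other 4. The gap to the next value was 0.734 of the range of the WT group, above Dixon's critical value for 5 samples. Of 26 groups of 5 mice examined in this way this was the only 1, and chance alone would give about 5% of groups. The same mouse had the highest sums of striatal and olfactory bulb markers. Whether these bear on its *Calb2* value was not tested beyond the fits given in the Results.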

How the results depend on the processing

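For the 10 genes, none was called under any alternative that kept all mice, and leaving out 1 mouse in turn gave 0 to 1 calls (*Calb2* without WT mouse 5, *Npy* without WT mouse 3). Over all genes, 121 calls became 30 without surrogate variables, 34 with 1 and 57 with 2 of them, 38 with RIN, 9 with the striatal score, 24 with the replicate block, 1 in mice with a RIN of 9.5 or above and 233 with DESeq2, and ranged from 13 to 248 with 1 mouse left out, with or without surrogate variables. In the same order the 2 calls of the wider lists became 1, 1, 2, 1, 0, 0, 0 and 5, and ranged from 0 to 5. Replicate numbers were not taken to pair the mice, and the block is given only here. Same-numbered mice correlated at -0.11 to 0.17 in their deviations from the group means. The closest WT mouse had the same number for KO mice 1 and 5 and another number for KO mice 2, 3 and 4. Pairing was not tested. *Gad2* was 0.00681 and *Sst* 0.0106 in mice with the higher RIN. With mice left out, *Gad2* ranged from -0.05122 to 0.002467 and *Lamp5* from -0.1836 to 0.007199. Leaving out mice without surrogate variables was chosen after seeing the data. The ratio of *Pvalb* to *Vip* was -0.0673 in mice with the higher RIN and ranged from -0.098 to 0.0625 with mice left out. Relations reversed for *Gad1* with the striatal score (0.2264 without 2 mice, 0.1207 within genotypes), *Gad2* with that score (-0.1655 without 2 mice) and *Sst* with *Npy* (-0.2108 within genotypes), and *Vip* with *Calb2* weakened to -0.3712 within genotypes. The causes were not tested. Depth was lowest for *Calb2*, with 225 counts at least.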
